A study of Mus musculus with 8 samples.

Results

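The 3 genes of the Klotho family, the ligand genes Fgf1 and Fgf21 and the 4 FGF receptor genes were described in the inguinal white fat, a subcutaneous depot, of 6-week-old mice. They were taken by gene symbol, with 1 row per symbol, and all 9 were found among 23360 genes. The 4 Lsd1 KO libraries came from mice that carried floxed Lsd1 (gene symbol Kdm1a, a histone demethylase) and the Adipoq-Cre transgene, whose adiponectin promoter drives Cre in adipocytes, and the 4 control libraries from mice with floxed Lsd1. The labels do not give the sex or say that Adipoq-Cre was carried by any control, so effects of Cre and of Lsd1 deletion cannot be told apart. Nothing in them says that each library is a separate mouse, so the p-values below rest on a spread between samples that could be technical. The members were chosen by their measured scaled reads in this same comparison of Lsd1 KO with control libraries, so their differences are a description, and no test of them is given as support.

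Fibroblast growth factors signal through receptor tyrosine kinases. FGF1 binds every FGF receptor together with heparan sulfate and acts close to where it is made, whereas the endocrine ligands bind heparan sulfate weakly and need a Klotho protein as a co-receptor. Beta-Klotho (Klb) with FGFR1 forms the FGF21 receptor of adipocytes, alpha-Klotho (Kl) serves FGF23 in the kidney, and the remaining family member, Lctl, also called gamma-Klotho or Klph, is best known from the lens of the mouse eye.

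Values are reads that the authors scaled with 1 factor per library and are called scaled reads. The libraries held 25671837 to 28215790 recovered reads in Lsd1 KO replicates 1, 2 and 4, 32442724 in Lsd1 KO replicate 3, and 27666408 to 29442190 in the controls. Kdm1a was at 566, 578, 547 and 581 scaled reads in Lsd1 KO replicates 1 to 4, against 699, 685, 799 and 735 in control replicates 1 to 4, and the groups did not overlap. Cells of the pad other than adipocytes keep the gene. Control replicates 1 and 2 have the sample numbers 518 and 517 in their titles and the other 6 libraries 356 to 361, and the labels do not say whether this marks a batch. The summed adipocyte markers (8 of 8 genes, Adipoq and Lep among them) were at 295794 to 326775 in the Lsd1 KO libraries and 394818 to 494223 in the controls. The groups did not overlap in this sum, and the ratio of means was 0.734. Of the 8 genes 1 passed the threshold between genotypes (limma adjusted p under 0.05). Adipoq by itself overlapped, at 25163 to 31048 in Lsd1 KO and 30754 to 39979 in control libraries. Because the sum was lower in the Lsd1 KO libraries, dividing by it, as is done below, raises the Lsd1 KO values of every gene relative to the controls. The summed skeletal muscle markers (8 of 8 genes) were at 146680 and 152395 in Lsd1 KO replicates 2 and 1, 87334 in Lsd1 KO replicate 4 and 9600 in Lsd1 KO replicate 3, against 6259 to 29006 in the controls. The basal keratin genes Krt14 and Krt5 were at 137 and 237 in Lsd1 KO replicate 1 and at 39.7 and 82.2 in Lsd1 KO replicate 2, and no other library had more than 0.98 of either. Of the other mammary epithelium markers, Krt19, Cdh1 and Trp63 were also highest in Lsd1 KO replicate 1 (61.1, 117 and 42.5). Epcam was highest in control replicate 3 (38.7, against 25.6 in Lsd1 KO replicate 1) and Krt18 in Lsd1 KO replicate 3 (9.73, against 7.63). Krt8 and Csn3 were at 3.27 or below in every library. In a whole pad, fewer cells of a type and less RNA per cell cannot be told apart.

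Lctl was the Klotho gene that differed between the genotypes. It encodes a membrane protein with a glycosidase-like domain. Lctl had 69.8, 104, 106 and 103 scaled reads in Lsd1 KO replicates 1 to 4, against 358, 624, 331 and 446 in control replicates 1 to 4. The lowest control was above 3 times the highest Lsd1 KO library, and the groups did not overlap. Its mean was 95.9 ± 17.5 in Lsd1 KO and 440 ± 132 in control pads (SD, n = 4 each), a ratio of 0.218. On the log2(value + 1) scale used for all fold changes below, which understates those of low genes, its Lsd1 KO minus control difference was -2.16 (SE 0.213), and it was -2.28 to -1.98 when any 1 library was left out. Per 100000 scaled reads of the adipocyte markers, Lctl was at 31.0 ± 6.5 in Lsd1 KO libraries (range 21.4 to 35.3) and 102 ± 20.2 in controls (range 81.5 to 126), so the groups stayed apart on that scale too.

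The Lctl gene (NM_145835) lies on chromosome 9 from 64117123 to 64138118 on the plus strand of GRCm38.p6, the assembly patch series of mm10. Its last part overlaps Zwilch, a kinetochore gene on the opposite strand. The gene spans share 975 bases, of which 254 are exonic in both, and these make up 11.7% of the Lctl transcript and 8.6% of the Zwilch transcript. Zwilch had 52.9, 44.1, 50.4 and 42.4 scaled reads in Lsd1 KO replicates 1 to 4, against 104, 137, 118 and 129 in control replicates 1 to 4. It fell too (log2 fold change -1.34, SE 0.144, limma adjusted p = 0.00169). The Lsd1 KO minus control difference of the means was -344 scaled reads for Lctl and -74.4 for Zwilch. Strandedness is not given in the sources used here, so reads in the shared exons cannot be assigned, and the part of the overlap in either difference was not tested.

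Klb, the FGF21 co-receptor, differed little. It had 1205, 1058, 902 and 982 scaled reads in Lsd1 KO replicates 1 to 4, against 1078, 1151, 1102 and 1222 in control replicates 1 to 4. The groups overlapped, and the difference of the means, 1037 ± 129 in Lsd1 KO and 1138 ± 63.6 in control pads (SD, n = 4 each), was smaller than the larger SD (log2 fold change -0.14, SE 0.096). Per 100000 adipocyte marker reads, a sum that was itself lower in the Lsd1 KO libraries, its means stood the other way round. They were 333 ± 39.4 in Lsd1 KO and 271 ± 29.6 in control libraries, and the groups overlapped there too (281 to 369 and 233 to 305). On scaled reads Klb was the steadiest member, with a highest library at 1.36 times the lowest. Per kb of transcript, the ratio of Lctl to Klb was 0.0944, 0.161, 0.192 and 0.172 in Lsd1 KO replicates 1 to 4, against 0.541, 0.884, 0.49 and 0.594 in control replicates 1 to 4. Lctl thus made up 8.62 to 16.1% of the 3 Klotho transcripts per kb in the Lsd1 KO libraries and 32.9 to 46.9% in the controls. Values per kb take the reads as exon reads, which the sources used here do not state.

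Kl was close to absent from the pad in both genotypes. It had 2.18, 1.09, 0.88 and 1 scaled reads in Lsd1 KO replicates 1 to 4, against 1.95, 0.98, 0 and 0 in control replicates 1 to 4. These were 10 recovered reads over the 4 Lsd1 KO libraries and 6 over the 4 controls, so no fold is given. A count of 0 allows up to 3 reads, or 1.47 to 1.55 scaled reads in the 2 controls without a read, for counting error only.

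The promoters of Lctl and Klb are shown because these family members behaved differently, and that of Fgf21 because it varied the most between libraries. Each window runs from 250 bases before to 50 bases after the start used in the RefSeq promoter table, GRCm38.p6. For Lctl that start lies inside the gene span given above. Both strands were searched for AGGTCA, the core of nuclear receptor elements, and for TATAAA, bound by the basal transcription machinery. They were also searched for GGGCGG, an element that Sp factors bind, and for CACGTG, an E-box, and capitals mark the matches.
Lctl (chr9:64116897-64117196, plus strand): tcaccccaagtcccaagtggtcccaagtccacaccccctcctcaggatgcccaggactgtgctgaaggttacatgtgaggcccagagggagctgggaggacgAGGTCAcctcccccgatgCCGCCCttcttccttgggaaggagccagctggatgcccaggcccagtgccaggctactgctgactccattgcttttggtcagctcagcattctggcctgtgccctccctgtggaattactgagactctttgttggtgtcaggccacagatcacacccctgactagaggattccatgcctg
Klb (chr5:65348161-65348460, plus strand): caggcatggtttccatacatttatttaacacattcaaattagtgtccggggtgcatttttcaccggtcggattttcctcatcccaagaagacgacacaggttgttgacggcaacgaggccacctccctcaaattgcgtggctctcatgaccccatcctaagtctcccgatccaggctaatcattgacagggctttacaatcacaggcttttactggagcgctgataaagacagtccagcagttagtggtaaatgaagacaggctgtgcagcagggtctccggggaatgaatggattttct
Fgf21 (chr7:45615441-45615740, minus strand): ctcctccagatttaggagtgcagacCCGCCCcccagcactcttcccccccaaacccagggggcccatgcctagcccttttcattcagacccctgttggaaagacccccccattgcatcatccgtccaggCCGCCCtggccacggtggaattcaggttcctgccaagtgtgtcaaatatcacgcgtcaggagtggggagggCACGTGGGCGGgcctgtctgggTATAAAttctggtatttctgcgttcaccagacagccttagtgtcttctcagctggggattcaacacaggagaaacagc

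The Lctl window held 1 AGGTCA, which 16.3% of 32851 promoter windows of this length hold, and 1 GGGCGG on the opposite strand, which 35.7% hold. Its C and G content was 59.3% with 3 CG dinucleotides. The Klb window had 48.3% C and G, 10 CG dinucleotides and none of the 4 motifs. The Fgf21 window held 1 TATAAA, which begins 28 bases before the start (position -28) and occurs in 13.6% of windows. It also held 3 GGGCGG, of which 2 lie on the opposite strand, and 1 CACGTG, which occurs in 7.15% of windows and shares 1 base with the GGGCGG nearest the start. These matches describe the letters of the windows and are not measured sites.

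Both ligand genes had higher means in the knockout pads, with unlike spread. Fgf1, the paracrine ligand that PPARG is known to induce in fat, had 380, 506, 623 and 308 scaled reads in Lsd1 KO replicates 1 to 4, against 210, 259, 265 and 258 in control replicates 1 to 4. Every Lsd1 KO library was above every control. The mean was 454 ± 139 in Lsd1 KO and 248 ± 25.7 in control pads (SD, n = 4 each), a ratio of 1.83, with a log2 fold change of 0.82 (SE 0.199). As a description, this did not pass the threshold over all genes with limma (239 genes called) or edgeR (218). It passed with DESeq2, which called 776 genes. The highest value was that of Lsd1 KO replicate 3, which had the lowest muscle marker sum of its group (9600). The lowest Lsd1 KO value was that of replicate 4, whose muscle marker sum (87334) was below those of replicates 1 and 2 (152395 and 146680). The part of the muscle content in the Fgf1 values was not tested. Per 100000 adipocyte marker reads Fgf1 was at 146 ± 43.8 in Lsd1 KO and 58.9 ± 7.04 in control libraries. Fgf1 lies on chromosome 18 within the span of Arhgap26, a gene of the opposite strand, with no exonic base shared. Whether reads outside exons were counted is not given.

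Fgf21, the endocrine ligand made mainly by liver and, under thermogenic stimulation, by brown fat, was low and scattered. It had 1.64, 15.2, 49.98 and 12.98 scaled reads in Lsd1 KO replicates 1 to 4, against 11.7, 11.3, 2.94 and 2.58 in control replicates 1 to 4. The groups overlapped, and the lowest and the highest library of all 8 were both knockouts. The counts behind them were 170 recovered reads in the Lsd1 KO libraries and 58 in the controls. The means were 20 ± 20.9 in Lsd1 KO and 7.13 ± 5.05 in control pads (SD, n = 4 each), so the SD in the knockouts exceeded their mean (log2 fold change 0.95, SE 0.828). Without Lsd1 KO replicate 3 the log2 fold change was 0.30 and without Lsd1 KO replicate 1 it was 1.72.

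**Figure D1:**
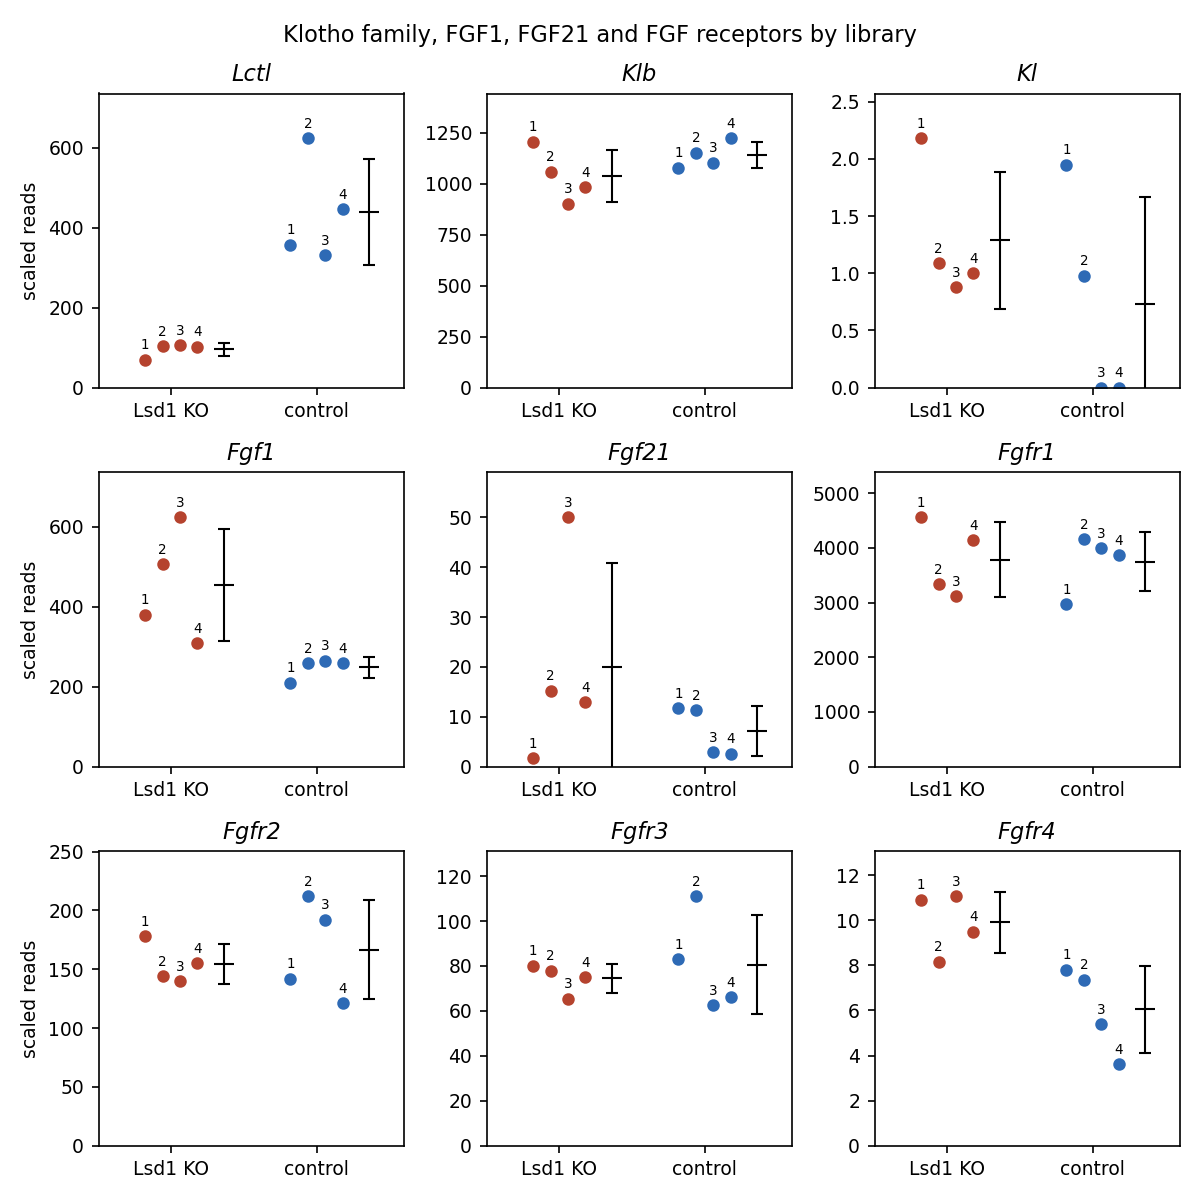
Scaled reads of the 9 genes in each of the 4 Lsd1 KO (red) and 4 control (blue) libraries, on a linear axis from 0 for each gene. Small digits are replicate numbers, and bars beside the points are the mean ± SD, clipped at 0 where they would go below it. Lctl is at 69.8 to 106 in Lsd1 KO and 331 to 624 in control libraries, and Fgf1 at 308 to 623 and 210 to 265.

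Fgfr1, the receptor that pairs with beta-Klotho in adipocytes, was the most abundant member and did not separate the genotypes. It had 4556, 3333, 3110 and 4139 scaled reads in Lsd1 KO replicates 1 to 4, against 2969, 4162, 3993 and 3867 in control replicates 1 to 4. The means were 3784 ± 678 in Lsd1 KO and 3748 ± 533 in control pads (SD, n = 4 each; log2 fold change 0.0087, SE 0.146), a difference far smaller than either SD. Per 100000 adipocyte marker reads it was at 969 to 1394 in Lsd1 KO and 752 to 983 in control libraries, a ratio of means of 1.37, and the groups overlapped. An antisense gene, Gm16159, shares 125 exonic bases with it, 2.5% of its transcript.

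Fgfr2, whose alternative exons for a ligand-binding domain serve epithelium and mesenchyme and which is counted here under a single accession, had 178, 144, 140 and 155 scaled reads in Lsd1 KO replicates 1 to 4, against 142, 212, 192 and 121 in control replicates 1 to 4. The controls enclosed the knockouts (log2 fold change -0.08, SE 0.182). Its highest Lsd1 KO value was in replicate 1, the library with the most Krt14 and Krt5 but not the most Epcam or Krt18. The part of epithelial cells in that value was not tested. Fgfr3 had 80.2, 77.8, 65.5 and 74.9 in Lsd1 KO replicates 1 to 4, against 83.0, 111, 62.7 and 66.0 in control replicates 1 to 4 (log2 fold change -0.08, SE 0.19). Again the groups overlapped, and the spread was wider in the controls (SD 21.9) than in the knockouts (SD 6.45). A gene of the opposite strand, G630022F23Rik, shares 411 exonic bases with Fgfr3, 9.7% of its transcript.

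Fgfr4, the receptor best known from liver, where it pairs with beta-Klotho, was at trace level. It had 10.9, 8.16, 11.1 and 9.49 scaled reads in Lsd1 KO replicates 1 to 4, against 7.81, 7.37, 5.39 and 3.61 in control replicates 1 to 4. The groups did not overlap in scaled reads. The nearest libraries, Lsd1 KO replicate 2 at 8.16 and control replicate 1 at 7.81, held 15 and 16 recovered reads, so their order rests on the library factors. These were 79 recovered reads over the Lsd1 KO libraries and 49 over the controls, and Fgfr4 did not reach the level needed to enter the fit across all genes.

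Levels can be compared between genes per kb of transcript if only exon reads were counted, which the sources used here do not say. The order and shares below rest on that. In the knockout pads Fgfr1 led at 753 ± 135 scaled reads per kb, followed by Klb at 293 ± 36.5, Fgf1 at 114 ± 35.0, Fgfr2 at 46.4 ± 5.14, Lctl at 44.2 ± 8.05, Fgf21 at 21 ± 22, Fgfr3 at 17.7 ± 1.53, Fgfr4 at 2.98 ± 0.41 and Kl at 0.252 ± 0.117 (SD, n = 4). Of these neighbours, Fgfr2 and Lctl, Lctl and Fgf21, and Fgf21 and Fgfr3 had overlapping libraries. In the control pads Fgfr1 led at 746 ± 106 scaled reads per kb, followed by Klb at 322 ± 18, Lctl at 202 ± 61.0, Fgf1 at 62.3 ± 6.46, Fgfr2 at 50.1 ± 12.8, Fgfr3 at 19.1 ± 5.19, Fgf21 at 7.5 ± 5.31, Fgfr4 at 1.82 ± 0.582 and Kl at 0.143 ± 0.182 (SD, n = 4). There, only Fgf1 and Fgfr2 were neighbours with overlapping libraries. Lctl thus came next after Klb in the controls, and stood below Fgf1 and beside Fgfr2 in the knockouts. The make-up of the receptors was alike in both genotypes, with Fgfr1 at 91.0 to 92.4% of the 4 receptor transcripts per kb in the Lsd1 KO libraries and 90 to 93.6% in the controls.

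**Figure D2:**
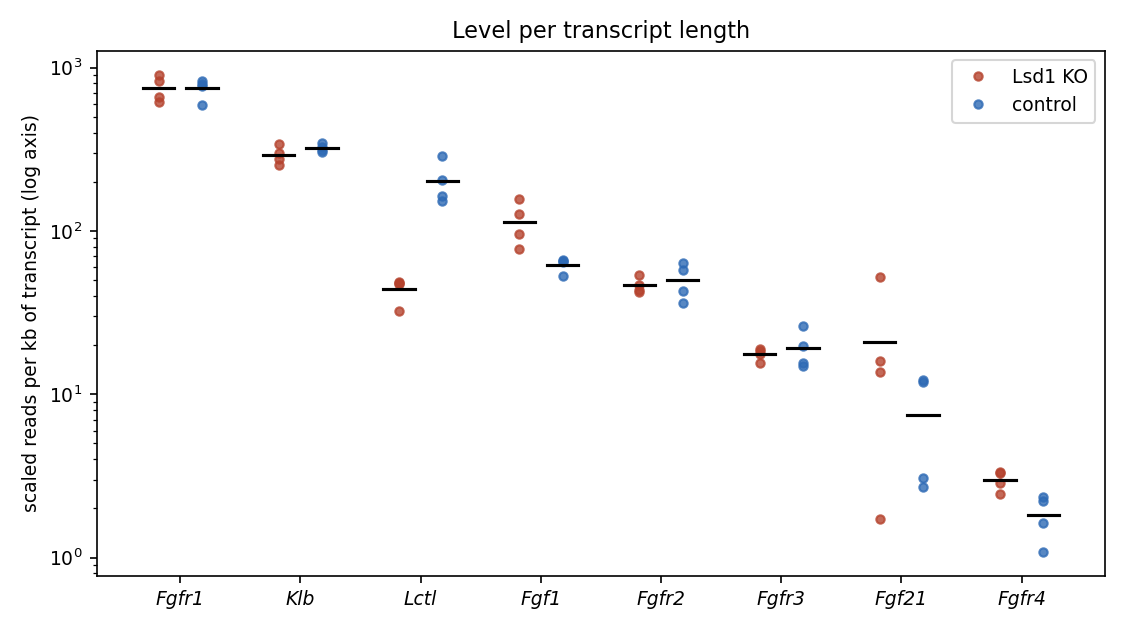
Scaled reads per kb of transcript, on a log axis, for 8 of the 9 genes, in the order of the control means. Points are the 4 Lsd1 KO (red, left) and 4 control (blue, right) libraries, and black lines their means. Kl is left out because it is at 0 in 2 controls. The knockout mean of Lctl is at 44.2 and the control mean at 202, while Fgfr1 is at 753 and 746.

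Of the 9 members 7 passed the filter on low values, and Kl and Fgfr4 did not. Across all 14591 tested genes 1.64% passed the threshold (limma, Benjamini-Hochberg adjusted p under 0.05), 0.356% as lower in the knockout, and 1 of the 7 members, Lctl, was among those lower. The groups did not overlap in 8.65% of all tested genes and in 2 of the 7 members. Lctl was lower, as 3.58% of all tested genes were without overlap, and Fgf1 higher, as 5.06% were. The median log2 fold change was -0.08 over the 7 members and 0.02 over all tested genes. Because this contrast chose the members, nothing is read from these counts. By size, the log2 fold change was -2.16 for Lctl, 0.95 for the scattered Fgf21 and 0.82 for Fgf1, and between -0.14 and 0.0087 for Klb, Fgfr1, Fgfr2 and Fgfr3.

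The genes whose pattern over the 8 libraries was nearest to that of Lctl were Wfdc21, the histone gene H4c8 and Zwilch, with root-mean-square differences of 0.372, 0.474 and 0.51 in mean-centred log2 values, against a median of 1.15 over all tested genes. Wfdc21 had 138 to 183 scaled reads in the Lsd1 KO libraries and 481 to 646 in the controls. H4c8 had 21.8 to 35.5 and 59.1 to 89.1, and it is 1 of several near-identical histone genes, so its reads are uncertain. Nearest to Klb were Rapgef3 (0.0419), which encodes a cAMP-activated exchange factor, the G protein gene Gnaq (0.0433) and Mtmr10 (0.0475), against a median of 0.24. Nearest to Fgfr1 were Dact1 (0.0624), Chrd (0.0752), which encodes the BMP antagonist chordin, and Neo1 (0.0782), against a median of 0.276.

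In the wider FGF pathway 2 genes passed the threshold outside the members. The 7 lists, written from general knowledge with earlier results of these data known, held 109 genes, of which 92 were tested. Of these 2 rose and none fell with limma, 12 had an unadjusted limma p under 0.05, and edgeR called 2 and DESeq2 3. Their median log2 fold change was -0.0035. Over all 14591 tested genes 1.28% rose and 0.356% fell with limma, and 2119 had an unadjusted limma p under 0.05. There, edgeR called 218 and DESeq2 776. These counts, and those of single lists below, are therefore not read as a result about the lists.

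Among 13 tested heparan sulfate enzymes 1 rose, Hs6st2, which adds sulfate at the 6-O position of the chains that hold FGF on its receptor. Hs6st2 (NM_015819, chromosome X from 51386637 to 51681705) had 47.4, 60.4, 49.98 and 34.95 scaled reads in Lsd1 KO replicates 1 to 4, against 18.6, 14.7, 11.3 and 14.4 in control replicates 1 to 4. Every Lsd1 KO library was above every control. The mean was 48.2 ± 10.5 in Lsd1 KO and 14.7 ± 2.98 in control pads (SD, n = 4 each) and the log2 fold change 1.64 (SE 0.231), with a limma adjusted p of 0.00800. The related Hs6st1, at 635 ± 90 in Lsd1 KO and 616 ± 45.0 in control pads, did not pass (log2 fold change 0.04, limma adjusted p = 0.914). The most abundant members of the list, Extl3 (log2 fold change -0.16) and the sulfatase gene Sulf2 (-0.00013), did not pass either, with limma adjusted p of 0.482 and 0.999.

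Among 13 tested receptor partners and processing enzymes 1 rose. Fap encodes a fibroblast-surface protease that is known to inactivate human FGF21 by cleaving its C-terminal end. Its action on mouse FGF21 was not tested here. Fap had 556, 551, 513 and 556 scaled reads in Lsd1 KO replicates 1 to 4, against 398, 364, 418 and 387 in control replicates 1 to 4. The libraries of each group lay close together and the groups did not overlap (means 544 ± 20.7 in Lsd1 KO and 392 ± 22.7 in control pads, SD, n = 4 each). The log2 fold change was 0.47 (SE 0.0774) with a limma adjusted p of 0.0171. The summed fibroblast and progenitor markers (7 of 7 genes) were at 134963 to 185420 in Lsd1 KO and 134236 to 166055 in control libraries. The call was lost without control replicate 4 or Lsd1 KO replicate 2 or 4 (limma adjusted p = 0.0594, 0.0812 and 0.0829). It was also lost on leaving out both control replicates 1 and 2 (limma adjusted p = 0.135). With the mean log2(value + 1) of the muscle, mammary or B cell markers as covariate it was lost too (limma adjusted p = 0.065, 0.0665 and 0.0522). Log2 fold changes in these fits were 0.42 to 0.47. The decoy receptor gene Fgfrl1, which binds FGF but lacks a kinase, was at 1954 ± 151 in Lsd1 KO and 2380 ± 415 in control pads (log2 fold change -0.27, limma adjusted p = 0.360), and Furin, a protease that cuts FGF23, at 1981 ± 121 and 2153 ± 227 (-0.12, 0.604).

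The other ligands and the signal relay did not pass. Of 20 other ligand genes 8 were tested and none passed with limma, edgeR or DESeq2, while 1 had an unadjusted limma p under 0.05. The most abundant was Fgf10, a mesenchymal ligand of FGFR2 known in preadipocytes, at 645 ± 68.9 in Lsd1 KO and 756 ± 139 in control pads (log2 fold change -0.22, limma adjusted p = 0.488). Fgf13, an intracellular FGF that does not act through the receptors, was at 175 ± 35.3 in Lsd1 KO and 124 ± 29.6 in control pads (0.50, 0.286). The 12 untested ligands were at 19.6 scaled reads or below in every library, the endocrine Fgf23 at 5.86 or below, and Fgf15 and Fgf8 at 0 in all 8. Of 24 relay genes from the adaptor Frs2 to the ERK kinases none passed with any of the 3 tools, none had an unadjusted limma p under 0.05, and log2 fold changes ran from -0.33 to 0.21. Among the most abundant of them, the phosphatase gene Ptpn11 was at 3030 ± 78.5 in Lsd1 KO and 3263 ± 169 in control pads (log2 fold change -0.11, limma adjusted p = 0.523).

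Of 16 tested feedback and immediate target genes none passed with limma, edgeR or DESeq2, and 3 had an unadjusted limma p under 0.05. The groups did not overlap for 2 of them, the receptor-signal inhibitors Spry1 and Spred2. Spry1 was at 466 ± 43.5 in Lsd1 KO and 529 ± 27.6 in control pads (log2 fold change -0.19, limma adjusted p = 0.381), and Spred2 at 255 ± 39.3 and 312 ± 12.1 (-0.30, 0.296). The share of all tested genes whose Lsd1 KO libraries all lay below the controls was 3.58%. The ERK phosphatase gene Dusp6, a widely used readout of FGF signalling, was at 864 ± 165 in Lsd1 KO and 880 ± 169 in control pads (-0.03, limma adjusted p = 0.956). Ccnd1, which encodes cyclin D1, had a log2 fold change of 0.13 (limma adjusted p = 0.750). Egr1, an immediate early gene, had 473 to 631 scaled reads in the Lsd1 KO libraries, against 3118, 4408, 693 and 531 in control replicates 1 to 4 (-1.48, limma adjusted p = 0.304). The high values came from control replicates 1 and 2, without which the log2 fold change was -0.18.

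None of 8 tested genes known to act on Fgf21 or Fgf1 passed with limma or edgeR, where 2 had an unadjusted limma p under 0.05, and 1, Ppara, passed with DESeq2. Ppara, a fatty-acid receptor known to induce Fgf21 in liver, had 388, 190, 128 and 232 scaled reads in Lsd1 KO replicates 1 to 4, against 421, 644, 451 and 375 in control replicates 1 to 4. The groups overlapped through Lsd1 KO replicate 1 (log2 fold change -1.09, SE 0.299, limma adjusted p = 0.125). The most abundant, Pparg, was at 2998 ± 371 in Lsd1 KO and 3434 ± 1092 in control pads (log2 fold change -0.16, limma adjusted p = 0.749). Rxra, its heterodimer partner, was at 2794 ± 298 in Lsd1 KO and 3253 ± 283 in control pads (-0.22, 0.340).

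**Figure D3:**
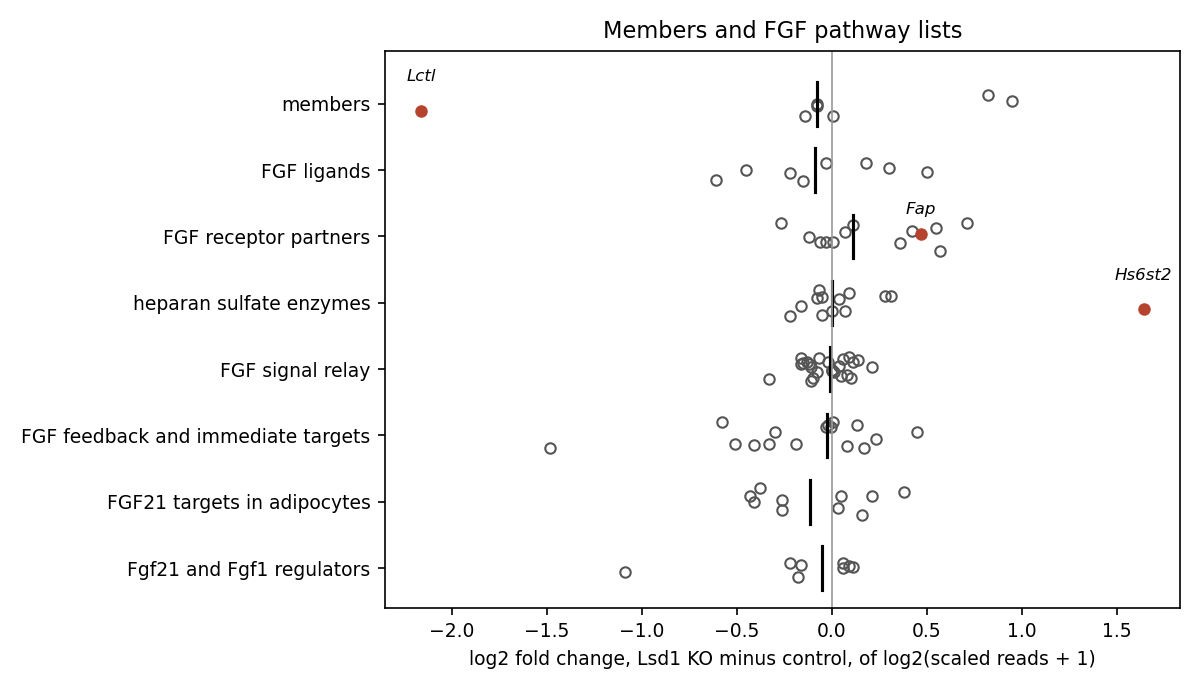
Log2 fold change, Lsd1 KO minus control, of each tested member and each tested gene of the 7 FGF pathway lists, 1 row per list and 1 point per gene with a small vertical scatter for visibility. Filled red points passed the threshold over all genes, open points did not, and black ticks are list medians. Lctl is at -2.16, Hs6st2 at 1.64 and Fap at 0.47, and the list medians lie between -0.11 and 0.11.

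Genes listed as responding to FGF21 in fat were compared with Fgf21 itself over the 8 libraries of both genotypes. A listed gene such as Mlxipl may also act on Fgf21, and these relations give no direction. None of the 10 tested targets passed the threshold between genotypes with limma, edgeR or DESeq2, and none had an unadjusted limma p under 0.05. The most abundant, Adipoq and Mlxipl, had log2 fold changes of -0.26 and 0.16 (limma adjusted p = 0.420 and 0.812). Ucp1, the uncoupling protein of thermogenic adipocytes, had 167, 1370, 4732 and 447 scaled reads in Lsd1 KO replicates 1 to 4, against 3189, 1639, 384 and 756 in control replicates 1 to 4. Lsd1 KO replicate 3 was highest and Lsd1 KO replicate 1 lowest for both Fgf21 and Ucp1.

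On the log2(value + 1) scale Fgf21 and Ucp1 had a Pearson r of 0.81 (n = 8, exact two-sided permutation p = 0.0148, 0.074 adjusted over 10 relations) and a Spearman rho of 0.69 (exact p = 0.0694, adjusted 0.231). Without the 2 libraries farthest from the median of Fgf21, Lsd1 KO replicates 1 and 3, r was 0.52 over 6 libraries, so the relation rests in large part on them. Fgf21 and Sik2, a salt-inducible kinase gene of adipocytes, had an r of -0.86 (n = 8, exact permutation p = 0.00846, adjusted 0.074) and a rho of -0.83 (exact p = 0.0154, adjusted 0.154), and r was -0.54 over 6 libraries. For Fgf21 and Cidea, a lipid droplet protein gene of brown and beige cells, r was 0.76 (n = 8, exact permutation p = 0.0273, adjusted 0.091) and rho 0.60 (exact p = 0.132, adjusted 0.33), with an r of 0.82 over 6 libraries. For Fgf21 and Mlxipl, a glucose-responsive transcription factor gene, r was 0.71 (n = 8, exact permutation p = 0.0476, adjusted 0.119) and rho 0.76 (exact p = 0.0368, adjusted 0.184), and r was 0.25 over 6 libraries. After each genotype's mean was taken out, r was 0.93 for Ucp1, -0.84 for Sik2, 0.75 for Cidea and 0.70 for Mlxipl, as a description. No relation passed after adjustment over the 10, and the muscle marker sums of the end libraries, 152395 in Lsd1 KO replicate 1 and 9600 in Lsd1 KO replicate 3, were the highest and the lowest of the knockouts. The part of the muscle content in these relations was not tested.

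**Figure D4:**
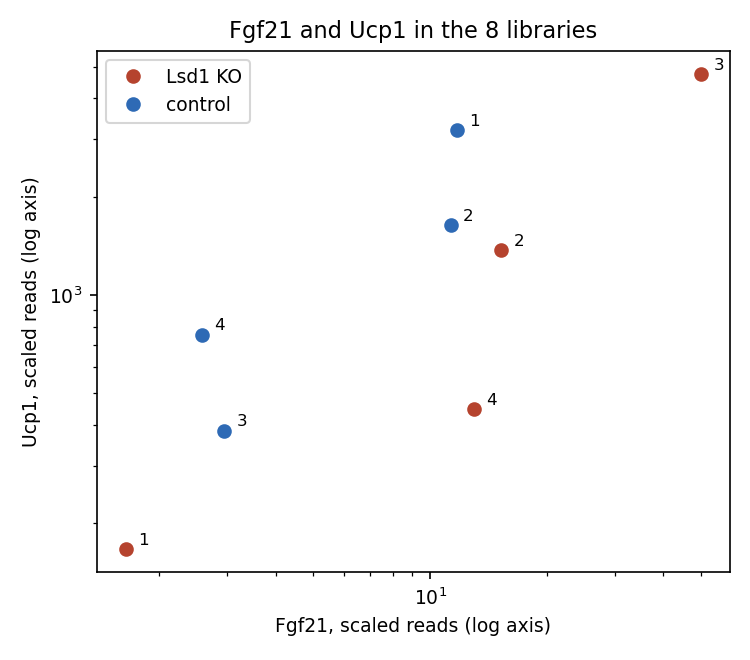
Fgf21 (x) against Ucp1 (y) in scaled reads, both on log axes, in the 4 Lsd1 KO (red) and 4 control (blue) libraries, with replicate numbers beside the points. Lsd1 KO replicate 3 is at 49.98 and 4732 and Lsd1 KO replicate 1 at 1.64 and 167, with the other 6 libraries between them.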

How the data were processed

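RNA of 8 libraries was sequenced. TopHat2 (version 2), HOMER, edgeR and mm10 are named per the submitters' processing notes. For annotation, strandedness, scaling and the counting of exons or whole gene spans, the method is not given in the sources used here. The authors deposited a signal, read counts times 1 factor per library: values above 0 were whole multiples of 1 step (0.442 to 0.545) within a tolerance of 0.02 in 100% of cases. A step can be 1 end of a read pair, so counting error can exceed what recovered reads imply. Accessions were matched to symbols with RefSeq GRCm38.p6 (22527) and GENCODE M21 (124), and 721 stayed unmatched. The row with no accession, at 0, was left out. Transcript lengths and overlaps came from GENCODE M21.

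Genes with at least 10 scaled reads in at least 4 libraries (14591) were fitted with limma 3.58.1 (mean-variance trend, log2(value + 1), genotype only, Benjamini-Hochberg, threshold 0.05), checked on simulated data. edgeR 4.0.16 and DESeq2 1.42.0 on recovered reads were alternatives, in R 4.3.3. Relations used exact permutation of 8 libraries (40320 orders; Python 3.11.15). Libraries of 1 group differed more than reads alone allow (chi-square of 25.6 to 136 for each degree of freedom). The members and lists were chosen with earlier results of these data known. Named were the members, Kdm1a, overlapping genes, the nearest 3 patterns of Lctl, Klb and Fgfr1, and of each list the genes past the threshold and the 2 most abundant (1 gene so chosen is not reported here); Hs6st1, Ppara, Spry1, Spred2, Dusp6, Sik2, Cidea and untested ligands were named after their values were seen. Il17rd, Cd68 and Csf1r were not analysed here.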

Additional observations from a re-analysis of the deposited data

Results flagged for a closer look

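In 3 of 18 groups of 4 libraries, 1 member's value stood far from the other 3 of its group by Dixon's gap ratio at its 95% critical value, where chance gives about 1 in 20 groups. Lctl was at 69.8 scaled reads in Lsd1 KO replicate 1, below the 103 to 106 of the other Lsd1 KO libraries. Kl was at 2.18 in the same library, against 0.88 to 1.09 in the others of its group, which is a difference of a few reads. Fgf1 was at 210 in control replicate 1, against 258 to 265 in the other controls. Lsd1 KO replicate 1 also had the most muscle marker and basal keratin reads, and their part in its values was not tested.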

How the results depend on the processing

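The 22 alternatives refit the values that chose the members, so for the members the passes are a description and not support. Across them Lctl kept its direction and passed the threshold in all 22 (log2 fold change -2.28 to -1.98), as did Zwilch (-1.41 to -1.27). Hs6st2 did so in the 21 that kept it in the fit (1.42 to 1.81). Fap kept its direction and passed in 15 of 22 (0.42 to 0.51). Fgf1 was positive in all 22 (0.66 to 1.07) and passed in 1, DESeq2, where 2 members passed in place of 1. Klb was negative in all 22 (-0.26 to -0.08). Fgf21 was positive in the 20 that kept it (0.30 to 1.91). The number of genes called was 71 (without Lsd1 KO replicate 4) to 429 (without Lsd1 KO replicate 3) when 1 library was left out, against 239 with all 8, 98 without control replicates 1 and 2 together, 140 with the B cell covariate and 776 with DESeq2. Some differences that did not pass turned sign. Fgfr1 was at -0.0063 with edgeR, -0.0091 with TMM scaling, -0.01 with DESeq2 and with RLE scaling, -0.07 without control replicates 1 and 2 together, -0.14 with the muscle and -0.07 with the mammary covariate, and -0.10 to 0.10 without 1 library. Without control replicates 1 and 2 together and with the B cell covariate, Fgfr2 was at 0.01 in both and Fgfr3 at 0.21 and 0.13. Without 1 library Fgfr2 was at -0.22 to 0.04, Fgfr3 at -0.18 to 0.09, Sulf2 at -0.04 to 0.04, Pparg at -0.25 to 0.04, Mlxipl at -0.05 to 0.31, Ccnd1 at -0.003 to 0.22 and Ucp1 at -1.24 to 0.36. Ucp1, at -0.41 (SE 0.967) with all 8 libraries, was at 0.15 with edgeR and DESeq2, 0.63 without control replicates 1 and 2 together, and 0.96 and 0.38 with the muscle and mammary covariates. Sulf2 was at 0.01 with library totals and Pparg at 7.4e-05 without control replicates 1 and 2 together. The cause was not tested. No member had more than 1 row, so summing rows altered none. No paired analysis was run because the labels give no pairing of samples between genotypes. Depth limits Kl and Fgfr4, with 6 to 79 reads per group.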
